A study of Mus musculus with 8 samples.

Results

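Serum amyloid A (Saa1, Saa2, Saa3, Saa4) and orosomucoid (Orm1, Orm2, Orm3, also called alpha-1-acid glycoprotein) are 2 families of secreted plasma proteins. The 7 genes were chosen by name, as the mouse protein-coding members of both families, out of 27453 genes in the count tables. The choice was made with earlier results of these data known. All 7 were found, and 6 of them were among the 6759 genes with enough reads to be tested. Orm3 was not. The series set out to compare liver RNA of young and old mice, read molecule by molecule on nanopores from polyadenylated RNA. The 8 libraries came from livers of the inbred strain C57BL/6JN, with 2 females and 2 males in each group, and the labels name no genetic change or drug in either. The titles begin with O in 4 libraries, whose age field reads 12 weeks, and with Y in the other 4, whose age field reads 80 weeks. The series text speaks of about 18 months for old and about 2 months for young mice, and the treatment field, which names old mice as the treated ones, is the same in all 8. Which set came from the older animals therefore cannot be told from the labels, and the groups are named here by their titles. In both groups replicates 1 and 2 are males and replicates 3 and 4 are females.

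Both families belong to the acute-phase proteins, which the liver makes in larger amounts during infection, injury or inflammation. Macrophage cytokines, chiefly interleukin-6 and interleukin-1, act on hepatocytes through the transcription factors STAT3, NF-kB and the C/EBP proteins, and glucocorticoids add to the induction of the orosomucoid genes. SAA1 and SAA2 travel in blood on high-density lipoprotein, and serum amyloid A is the precursor of amyloid A deposits. SAA4 is the constitutively made form, and SAA3 is known in mice also as a product of macrophages and fat cells. Orosomucoids are heavily glycosylated lipocalins that carry basic and neutral drugs and dampen immune responses.

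Each family sits in 1 cluster of the genome (build mm10). Orm1 lies on chromosome 4 at 63344560 to 63348163, Orm3 at 63356162 to 63359511 and Orm2 at 63362449 to 63365878, all on the plus strand. On chromosome 7, Saa3 lies at 46711998 to 46715700, Saa4 at 46727998 to 46732603 and Saa1 at 46740497 to 46742980, on the minus strand. Saa2 follows at 46751790 to 46754313 on the plus strand, head to head with Saa1, and the pseudogene Saa-ps between Saa4 and Saa1 was not analysed here. The stretches before the annotated gene starts are shown for Saa1 with Saa2 and for Orm2 with Orm3. In both genes of each pair the same element stands at nearly the same distance from the RefSeq start. The Saa1, Orm2 and Orm3 stretches end directly before the RefSeq start. The Saa2 stretch ends before the more upstream GENCODE start at 46751790, so its last base lies 44 bases before the RefSeq start at 46751833. They come from RefSeq on GRCm38.p6 and read 5′ to 3′ along the gene's strand, with the C/EBP motif TTGCNNAA in capitals. Saa1 is chr7:46742981-46743170 (minus), Saa2 is chr7:46751600-46751789 (plus), Orm2 is chr4:63362259-63362448 (plus) and Orm3 is chr4:63355968-63356157 (plus).
Saa1 promoter: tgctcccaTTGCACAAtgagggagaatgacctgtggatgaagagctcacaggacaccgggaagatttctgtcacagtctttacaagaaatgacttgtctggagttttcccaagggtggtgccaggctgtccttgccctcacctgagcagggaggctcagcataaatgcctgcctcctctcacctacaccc
Saa2 promoter: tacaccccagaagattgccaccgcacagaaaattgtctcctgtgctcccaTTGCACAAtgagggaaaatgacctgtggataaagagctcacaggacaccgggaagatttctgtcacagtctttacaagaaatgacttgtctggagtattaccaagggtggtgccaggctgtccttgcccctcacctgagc
Orm2 promoter: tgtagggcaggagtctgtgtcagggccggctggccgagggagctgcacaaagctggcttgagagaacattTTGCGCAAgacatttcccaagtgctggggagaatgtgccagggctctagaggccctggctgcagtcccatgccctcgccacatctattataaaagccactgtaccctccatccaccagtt
Orm3 promoter: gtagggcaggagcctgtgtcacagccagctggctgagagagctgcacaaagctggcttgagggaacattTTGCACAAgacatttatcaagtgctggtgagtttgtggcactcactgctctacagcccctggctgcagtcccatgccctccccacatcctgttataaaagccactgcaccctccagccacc

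All 6 members with a RefSeq promoter (every member but Orm1) held TTGCNNAA on either strand within 250 bases before the RefSeq start, against 9.56% of all 32851 promoters. The motif began 182 bases before the start in Saa1 and 183 in Saa2, 120 in Orm2 and 121 in Orm3. TATAAA stood in Orm2 and Orm3, 33 and 29 bases before the start, and in 12.4% of all promoters. The glucocorticoid receptor letters TGTTCT were found in Orm2, on the minus strand and just upstream of the C/EBP motif, and in 16.1% of all promoters. No member promoter held either of 2 NF-kB motifs with the core GGGNN (1.41% and 1.53% of all promoters), the STAT letters TTCNNNGAA (7.02%) or the interleukin-6 letters CTGGGAA (9.10%). Looser NF-kB forms, with A in place of the last G of that core, were not searched. The Saa1 stretch shown above holds such a form, which otherwise matches the motif found in 1.41% of all promoters. The search therefore does not show that the members lack an NF-kB site. The glucocorticoid receptor palindrome and the HNF1 palindrome were in 0.00913% of all promoters each and the HNF4 letters CAAAGTCCA in 0.384%, and none of these was in a member. A match of letters is a description and does not show that a factor binds there.

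Members within a family resemble each other, some of them closely, so reads could be split between them and their counts are uncertain to that degree. The Saa1 transcript and Saa2-201 were 94.4% identical, with 34 mismatches over 606 aligned bases, and their promoters were 95.6% identical. Orm1 and Orm2 transcripts were 91.0% identical, Orm2 and Orm3 88.5%, and Orm1 and Orm3 86.5%. Saa3 was further away, with 76.0% identity to Saa1, and Saa4 further still, with 66.2%. Median read lengths per library were 667 to 671 bases for Saa1 (annotated transcript 609 bases) and 827 to 836 bases for Orm1 (annotated 775 bases), so the typical read was at least as long as the mRNA. Likewise Orm2 reads had medians of 835 to 849 bases and Saa3 reads 619 to 639 bases, above annotated lengths of 775 and 555 bases. Saa4 was an exception, with medians of 788 to 1174 bases on an annotated transcript of 2094 bases. Saa2 was the only member with reads on more than 1 listed transcript. Its Saa2-203 form took 55.6% to 69.4% of Saa2 reads per library, Saa2-201 took 29.9% to 44.4%, and Saa2-202 at most 2.11%. The 68 reads of Saa2-202 had medians of 393.5 to 580 bases in 6 libraries, below and above its annotated 511 bases. Both larger forms encode the same 366-base coding sequence, with 79 bases before it in Saa2-203 and 33 in Saa2-201. Their reads were of nearly equal length, with medians of 658.5 to 677 and 649.5 to 669.5 bases. These exceeded the annotated lengths by 6.5 to 25 bases for Saa2-203 and by 43.5 to 63.5 for Saa2-201. The shares follow the deposited assignment of reads, which was not tested, so which form was the main one is uncertain.

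**Figure D1:**
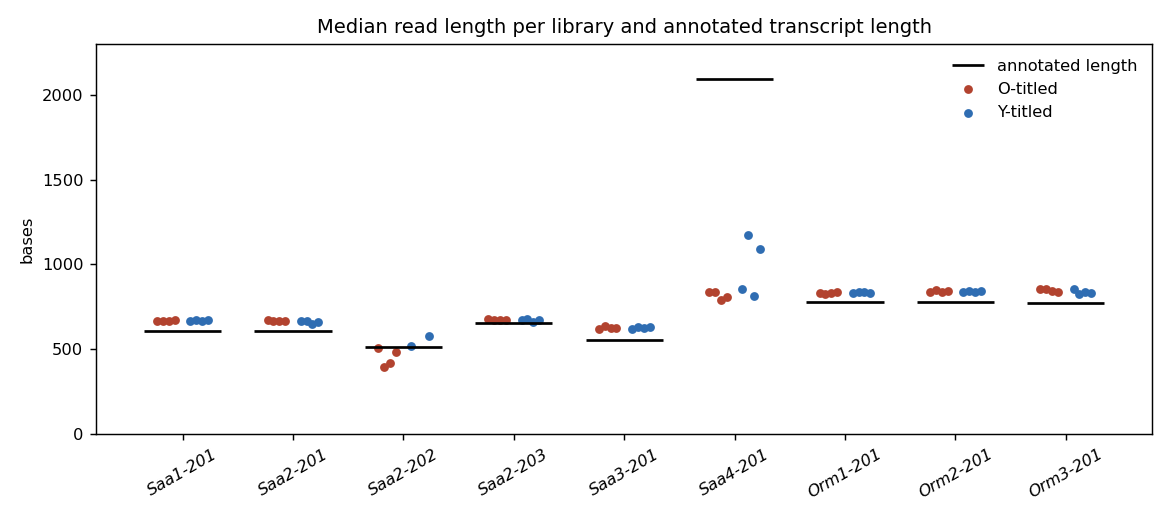
Median length in bases of the reads on each member transcript, 1 point per library (O-titled red, Y-titled blue), with the annotated transcript length as a black line. Points sit just above the line for 7 of the 9 transcripts, on both sides of it for the rarely read Saa2-202 and far below it for Saa4-201.

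Together the 7 genes took 0.908% and 0.875% of mapped reads in the O-titled females and 0.233% and 0.316% in the O-titled males. In the Y-titled libraries they took 0.129% and 0.182% in females and 0.211% and 0.236% in males. The O-titled females thus stood above all other libraries, and the Y-titled females below them. Libraries held 792004 to 2593200 mapped reads in the O-titled group and 545171 to 1722220 in the Y-titled group. A count of 3 reads, taken as the floor of detection, was 1.16 to 5.50 CPM (counts-per-million mapped reads). Levels below are CPM of reads in tested genes after scaling of the libraries, with SD over libraries.

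Saa1, an inducible serum amyloid A, had 1834 and 2421 CPM in the O-titled females and 411 and 846 CPM in the O-titled males, against 47.8 and 112 CPM in the Y-titled females and 540.02 and 758 CPM in the Y-titled males. The 4 males lay close together whatever their title, while the females of the 2 groups sat at opposite ends. Saa2, the other inducible form, had 1185 and 1773 CPM in the O-titled females and 131 and 493 CPM in the O-titled males, against 16.5 and 44.0 CPM in the Y-titled females and 179 and 216 CPM in the Y-titled males. Both followed the same order of libraries, with a Spearman rho of 1 and a Pearson r of 0.983 on the log2 scale over 8 libraries. The O-titled and Y-titled groups as wholes overlapped for both genes, because O-titled replicate 1, a male, fell inside the Y-titled range. O-titled replicate 2, the other male, lay above every Y-titled library for both genes, for Saa1 by little.

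Saa4, the constitutive form, had 181 and 211 CPM in the O-titled females and 162 and 209.6 CPM in the O-titled males, against 56.0 and 122 CPM in the Y-titled females and 144 and 156 CPM in the Y-titled males. Its 4 O-titled libraries all lay above its 4 Y-titled ones, and they spanned a 1.30-fold range. Saa3 had 42.5 and 12.6 CPM in the O-titled females and 13.1 and 9.40 CPM in the O-titled males, against 3.67 and 9.87 CPM in the Y-titled females and 8.18 and 13.9 CPM in the Y-titled males. These are few molecules, 4 to 49 reads per library, and 1 O-titled female stood well above the others. Macrophage genes were read beside it. The summed level of 14 Kupffer cell and macrophage markers was 1581 and 1203 CPM in the O-titled females and 1541 and 605 CPM in the O-titled males, against 699 to 861 CPM in the Y-titled libraries. None of the 13 markers tested passed the test, against 4.01% of all tested genes. Adipocyte markers summed to 670.4 to 1527 CPM in O-titled libraries and 1087 to 1417 CPM in Y-titled ones, but nearly all of that was Pck1 (623 to 1512 CPM in O-titled and 1064 to 1396 CPM in Y-titled libraries), an enzyme of glucose synthesis that hepatocytes also make. The other adipocyte markers summed to 6.30 to 64.5 CPM in O-titled and 21.1 to 27.8 CPM in Y-titled libraries, and the defining genes Plin1, Lep and Retn had 0 reads in all of them. The part of either cell type in the Saa3 values was not tested, and in bulk tissue more cells of a type and more RNA per cell cannot be told apart.

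Orm1, the most abundant orosomucoid mRNA, had 3619 and 2980.3 CPM in the O-titled females and 1537 and 1756 CPM in the O-titled males, against 1158 and 1477 CPM in the Y-titled females and 1386 and 1372 CPM in the Y-titled males. All 4 O-titled libraries lay above all 4 Y-titled ones, the females by a wide margin and the males by a narrow one. Orm2 had 1742 and 917 CPM in the O-titled females and 62.7 and 36.3 CPM in the O-titled males, against 27.6 and 88.9 CPM in the Y-titled females and 24.5 and 25.7 CPM in the Y-titled males. Only the O-titled females were high, and the other 6 libraries had 88.9 CPM or less, with a Y-titled female above both O-titled males. Orm3 had 21.7 and 67.9 CPM in the O-titled females and 3.46 and 6.72 CPM in the O-titled males, against 4.59 and 21.5 CPM in the Y-titled females and 3.15 and 1.98 CPM in the Y-titled males, from 1 to 97 reads per library. In each group both females lay above both males for Orm3, while the groups overlapped.

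**Figure D2:**
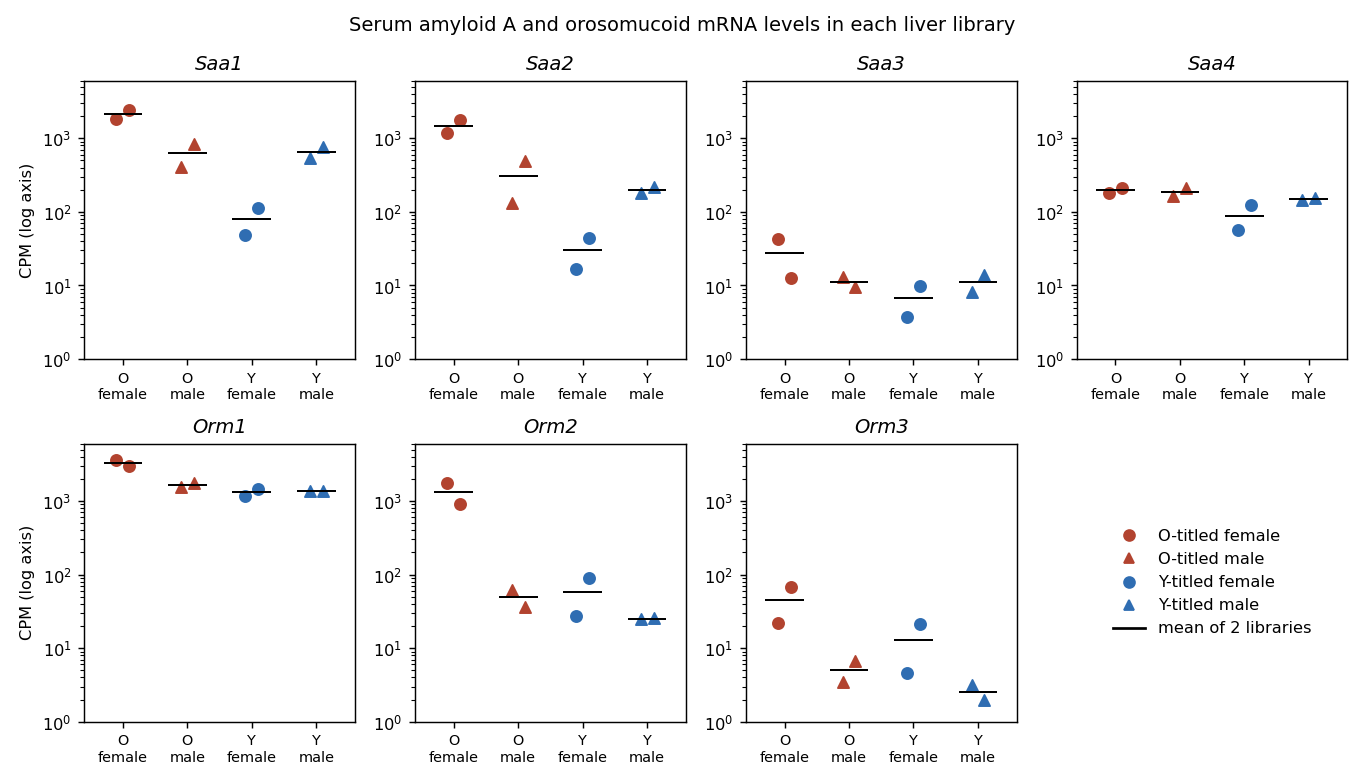
Level of each member in each library in CPM on a log axis, split by title and sex (circles females, triangles males, O-titled red, Y-titled blue, black line the mean of 2 libraries). For Saa1, Saa2, Orm1, Orm2 and Orm3 both O-titled females lie highest, for Orm3 with 21.7 CPM close to a Y-titled female at 21.5 CPM. For Saa1, Saa2 and Saa4 the Y-titled females lie lowest.

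Levels of different genes were set side by side per kilobase of annotated transcript. In the O-titled group Orm1 was highest at 3191 ± 1282 CPM per kb (SD, n = 4), followed by Saa1 at 2263 ± 1503, Saa2 at 1374 ± 1120 and Orm2 at 889.5 ± 1048 CPM per kb. Below these came Saa4 at 91.1 ± 11.3, Saa3 at 34.96 ± 27.9 and Orm3 at 32.3 ± 38.5 CPM per kb. Every neighbouring pair in that order overlapped between libraries except Saa4 and Saa3. In the Y-titled group the order was Orm1 at 1739 ± 174, Saa1 at 599 ± 561, Saa2 at 174 ± 151, Saa4 at 57.1 ± 21.3, Orm2 at 53.8 ± 40.6, Saa3 at 16.03 ± 7.60 and Orm3 at 10.1 ± 11.9 CPM per kb (SD, n = 4). There Orm1 lay clear of Saa1 in all libraries, and Orm2 clear of Saa3. Orm2 ranked above Saa4 in the O-titled and below it in the Y-titled group, with overlap in both. Direct RNA sequencing gives 1 read for a molecule of any length, so CPM without division by length is the more direct measure of abundance. Division by annotated length lowers Saa4 most, whose annotated 2094 bases exceeded its median reads of 788 to 1174 bases. Without the division part of the order changed. In CPM, Orm3 at 24.9 ± 29.7 came above Saa3 at 19.4 ± 15.5 in the O-titled group, and Saa4 at 119.5 ± 44.6 above Saa2 at 114 ± 98.2 in the Y-titled group (SD, n = 4 each). In the Y-titled group Saa4 also came above Orm2, at 41.7 ± 31.5 CPM, by a wider margin than per kilobase.

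With both sexes in 1 fit and sex as a covariate, no member passed the edgeR test of O-titled over Y-titled libraries (0 of 6 at an adjusted p of 0.05 or less, against 4.01% of the 6759 tested genes). At an unadjusted p under 0.05, 3 of 6 members were counted (Saa4, Orm1 and Orm2), all higher in O-titled libraries, against 16.2% of tested genes in either direction. The differences were large but so was their error. Orm2 differed by 3.20 on the log2 scale (SE 0.97, edgeR adjusted p = 0.192), the third highest of all tested genes. Saa2 differed by 2.95 (SE 1.41, edgeR adjusted p = 0.409) and Saa1 by 2.26 (SE 1.36, edgeR adjusted p = 0.518). Orm1 had the smallest adjusted p, at 0.0846 in edgeR, with a log2 difference of 0.79 (SE 0.21), and it came under the threshold when O-titled replicate 1 was left out (adjusted p = 0.0230). Saa3 differed by 1.19 (SE 0.55) and Saa4 by 0.71 (SE 0.27), with edgeR adjusted p of 0.342 and 0.234. DESeq2 and limma voom each called 2 members here, Orm1 and Orm2. The median over the 6 tested members was 1.73 on the log2 scale, beside -0.00095 over all tested genes. Only Saa4 and Orm1 had every O-titled library above every Y-titled one, which 4.1% of tested genes also did.

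Orm3 was compared by an exact permutation test over all 70 assignments of 4 against 4 libraries. Its mean log2 level, with 0.5 CPM added, was 1.35 higher in the O-titled libraries (exact two-sided p = 0.229, the smallest possible being 0.0286). Females exceeded males by 2.34 on the same scale (exact two-sided p = 0.0571). Unlike the edgeR tests, the permutation of titles took no account of sex, so the sex difference counted as spread within each group. Within each sex, both O-titled libraries lay above both Y-titled ones for Orm3. The same held for 22.3% of tested genes in females and 20.3% in males.

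Within females Saa1, Orm1 and Orm2 rose in the O-titled livers (3 of 6, against 5.47% of tested genes called in either direction and 2.74% called higher), and all 7 members had both O-titled females above both Y-titled females, as did 22.3% of tested genes. Saa1 was 26.5-fold higher (log2 4.73, SE 0.65, edgeR adjusted p = 0.0334) and Orm2 22.7-fold higher (log2 4.51, SE 0.70, edgeR adjusted p = 0.0466). Orm1 was 2.50-fold higher with the smallest error (log2 1.32, SE 0.16, edgeR adjusted p = 1.49e-05). Saa2 showed the highest difference of all tested genes, 48.6-fold (log2 5.60, SE 0.96), but missed the threshold (edgeR adjusted p = 0.0607). Saa4 differed by 1.13 and Saa3 by 1.95 on the log2 scale, with edgeR adjusted p of 0.0729 and 0.157. DESeq2 and limma voom called 5 members in females, adding Saa2 and Saa4. These calls rest on 2 libraries a side. With no filter on low counts the Saa1 and Orm2 calls were lost (edgeR adjusted p of 0.0575 and 0.0814) and Saa3, Saa4 and Orm3 were called beside Orm1. Orm1 kept its call whichever library was left out, with edgeR adjusted p of 1.88e-05 to 0.00217. The Saa1 call was lost without O-titled replicate 3 or 4 or Y-titled replicate 1, 2 or 3 (adjusted p up to 0.107), and the Orm2 call was lost without any library other than Y-titled replicate 4 (adjusted p up to 0.120).

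Within males no member passed the edgeR test (0 of 6, against 1.26% of tested genes), 0 of 6 had an unadjusted p under 0.05, against 9.45% of tested genes, and neither DESeq2 nor limma voom called any. Saa1 differed by -0.05 on the log2 scale (SE 0.55), Saa2 by 0.63 (SE 0.79), Saa3 by 0.30 (SE 0.70), Saa4 by 0.30 (SE 0.30), Orm1 by 0.26 (SE 0.16) and Orm2 by 1.07 (SE 0.81). For Saa4, Orm1, Orm2 and Orm3, both O-titled males lay above both Y-titled males, which 20.3% of tested genes also did.

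**Figure D3:**
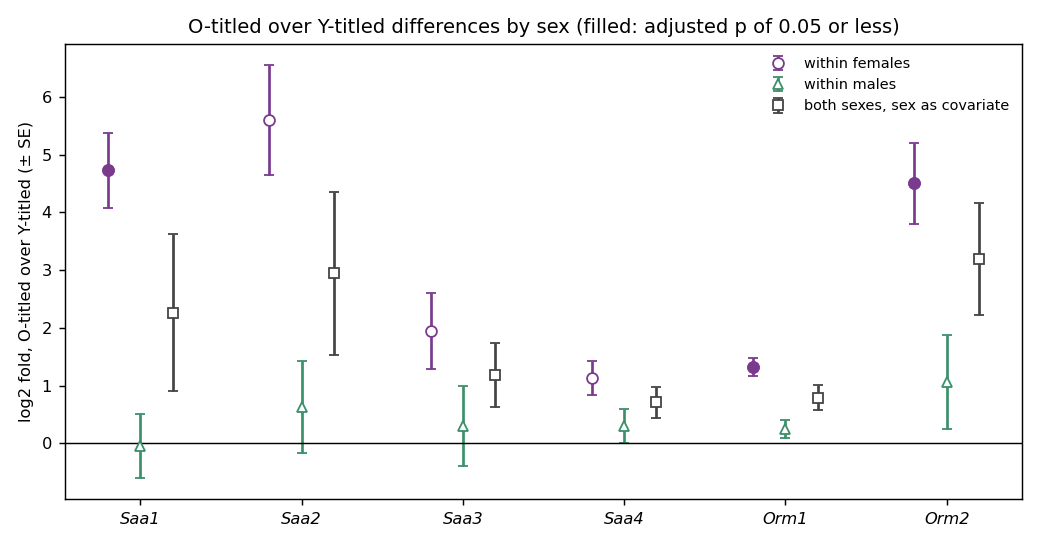
Log2 fold of O-titled over Y-titled libraries (± SE) for the 6 tested members within females (circles), within males (triangles) and with both sexes in 1 fit (squares); filled symbols passed the edgeR test. The filled symbols are Saa1, Orm1 and Orm2 in females, and the male values lie between -0.05 and 1.07.

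Whether the difference between titles itself differed between the sexes was tested in the same fit. Orm1 passed, with a female difference 1.07 larger on the log2 scale than the male one (SE 0.22, edgeR adjusted p = 0.0343), 1 of 6 members against 0.385% of tested genes. That call was lost without O-titled replicate 1, 2 or 3 or Y-titled replicate 1, 2 or 3 (adjusted p up to 0.251). It was also lost after thinning all libraries to the shallowest (adjusted p = 0.0547) and in limma voom (adjusted p = 0.0571). Saa2 had the largest value of all tested genes at 4.97 (SE 1.21), Saa1 the next at 4.78 (SE 0.83) and Orm2 the third at 3.44 (SE 1.08). Their edgeR adjusted p were 0.421, 0.265 and 0.518. DESeq2 called Saa1, Saa2, Orm1 and Orm2, and limma voom called Saa1 and Saa2.

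Comparing females with males over both titles, no member passed the edgeR test (0 of 6, against 2.96% of tested genes). At an unadjusted p under 0.05, 1 of 6 members was counted, against 12.3% of tested genes. It was Orm2, which was 3.39 higher on the log2 scale in females (SE 0.98, edgeR adjusted p = 0.238) and which DESeq2 and limma voom both called. The order of the sexes was not alike in the 2 groups. In the O-titled group both females lay above both males for Saa1, Saa2, Orm1, Orm2 and Orm3, as for 20% of tested genes. Among the Y-titled libraries both females lay below both males for Saa1, Saa2 and Saa4, as for 20.2% of tested genes. Saa1, for example, averaged 2128 ± 415 CPM in females and 629 ± 308 CPM in males of the O-titled group, and 80.0 ± 45.6 CPM in females and 649 ± 154 CPM in males of the Y-titled group (SD, n = 2 each).

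**Figure D4:**
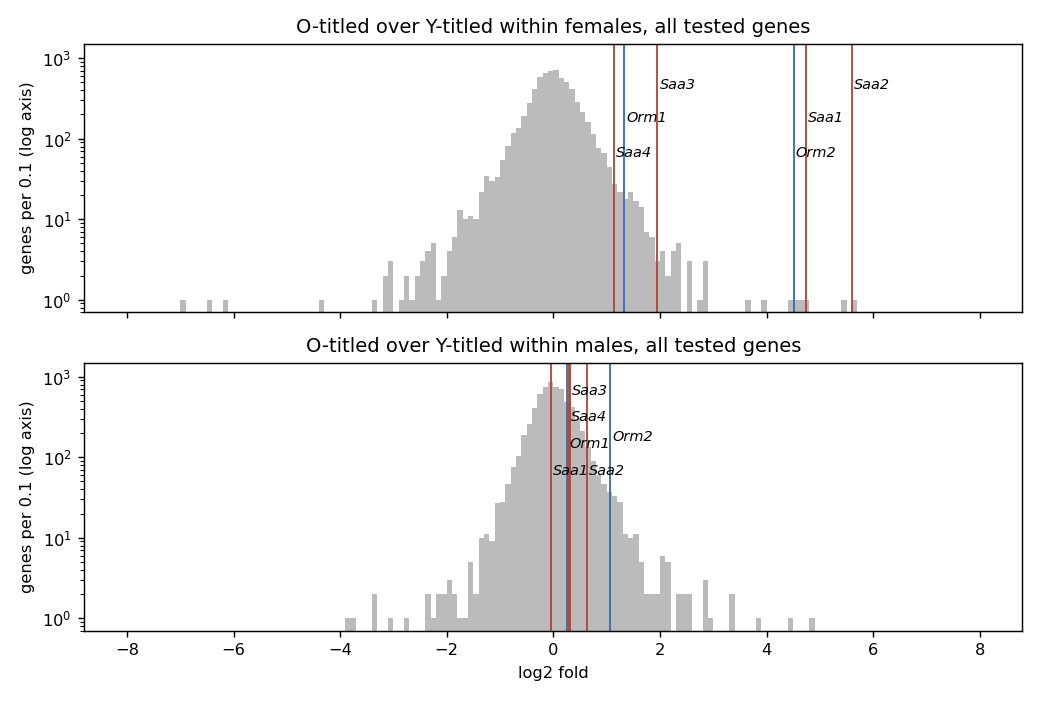
Number of tested genes at each log2 fold of O-titled over Y-titled libraries within females (top) and within males (bottom), on a log count axis, with vertical lines at the tested serum amyloid (red) and orosomucoid (blue) genes. In females Saa2, Saa1 and Orm2 lie at 5.60, 4.73 and 4.51 in the sparse right tail, and in males 5 of 6 lie between the 5th and 95th percentiles of tested genes, with Orm2 at 1.07 above the 95th (0.72).

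Rhythmic genes and another acute-phase gene ranked beside them in females. Ranks 1, 3 and 5 of the highest female log2 differences were Saa2, Saa1 and Orm2. Rank 2 was Dbp (5.43, SE 0.53, edgeR adjusted p = 0.000302), a transcription factor with a strong daily rhythm in liver, and rank 4 was Usp2 (4.63, SE 0.67, edgeR adjusted p = 0.000515), a rhythmic ubiquitin protease. Rank 6, next to Orm2, was Lcn2 (4.44, SE 0.25, edgeR adjusted p = 5.27e-10), an acute-phase lipocalin. All 3 were picked with their values in view. Dbp averaged 139 ± 21.4 CPM in O-titled libraries and 16.8 ± 16.8 CPM in Y-titled ones (SD, n = 4 each). In males Dbp differed by 2.04 (SE 0.36, edgeR adjusted p = 0.0317) and Usp2 by 3.85 (SE 0.74, edgeR adjusted p = 0.0151), where no Saa or Orm gene passed. Lcn2 also passed in males (2.16, edgeR adjusted p = 0.000302). Any part of the hour of collection in the member values was not tested.

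The make-up of each family also differed between libraries. Orm2 supplied 32.4% and 23.1% of Orm1, Orm2 and Orm3 reads in the O-titled females (95% exact binomial intervals 31.2% to 33.5% and 22.0% to 24.2%). In the O-titled males it supplied 3.91% and 2.02%, against 2.32% and 5.60% in the Y-titled females and 1.74% and 1.84% in the Y-titled males. Outside the O-titled females, Orm1 thus made up at least 93.0% of orosomucoid reads, and within them 67.2% and 75.2%. Saa2 supplied 39.2% and 42.3% of Saa1 and Saa2 reads in the O-titled females and 24.2% and 36.8% in the O-titled males, against 25.7% and 28.2% in the Y-titled females and 24.9% and 22.2% in the Y-titled males. The Y-titled female shares rest on 70 and 174 reads, with intervals of 16.0% to 37.6% and 21.6% to 35.5%, while the O-titled female shares rest on 3478 and 5991 reads. Saa4 was 5.57% and 4.77% of serum amyloid reads in the O-titled females and 22.6% and 13.4% in the O-titled males. It reached 45.2% and 42.4% in the Y-titled females, where Saa1 and Saa2 were low, beside 16.5% and 13.7% in the Y-titled males.

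**Figure D5:**
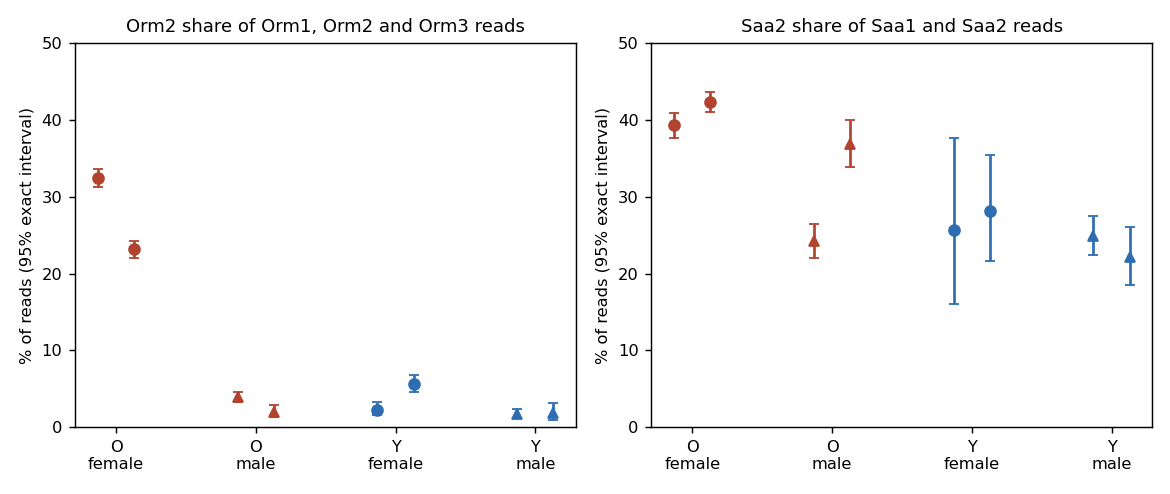
Share of Orm2 among orosomucoid reads (left) and of Saa2 among Saa1 and Saa2 reads (right) in each library, in percent, with 95% exact binomial intervals (counting error only; circles females, triangles males). The O-titled females stand at 32.4% and 23.1% on the left, and all other libraries are at or under 5.60%.

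Across libraries the families resembled each other only in part. On log2 levels over 8 libraries, Pearson r was 0.954 between Orm1 and Orm2 and 0.897 between Saa1 and Saa4. It was 0.776 between Saa1 and Orm1, 0.594 between Saa1 and Orm2 and 0.356 between Saa1 and the rarely read Orm3. Pairs within a family ranged from 0.670 (Saa3 and Saa4) to 0.983 (Saa1 and Saa2). Pairs between families ranged from 0.316 (Saa4 and Orm3) to 0.854 (Saa2 and Orm1), so the 2 ranges overlapped. Of 6608 named genes, the 5 most like the sum of Saa1 and Saa2 were Upp2 (r = 0.978), Upb1 (0.957), Gnpnat1 (0.952), Serping1 (0.947) and D2hgdh (0.946). Upp2 is a uridine phosphorylase of liver, Upb1 an enzyme of pyrimidine breakdown and Serping1 the C1 inhibitor of complement. Upp2 had 680 and 937 CPM in the O-titled females and 319 and 447 CPM in the O-titled males, against 90.03 and 128 CPM in the Y-titled females and 229 and 303 CPM in the Y-titled males. It thus kept nearly the library order of Saa1 over a narrower range. The 5 genes most like the orosomucoid sum were Cpq (r = 0.976), Cd302 (0.976), Kng2 (0.959), Cetn3 (0.958) and Vdac1 (0.953). Kng2 encodes a kininogen and Cpq a carboxypeptidase of plasma. These correlations describe 8 libraries that share title, sex and depth, and none of the 10 genes passed the O-titled over Y-titled test with both sexes together. Within females 7 of the 10 passed, all higher in O-titled livers, and within males none did. Upp2 had the largest of these differences, 2.89 on the log2 scale in females (edgeR adjusted p = 3.53e-05), and its female difference exceeded its male one (edgeR adjusted p = 0.0175). The 10 were chosen for following the families over the same libraries, so these calls are not independent of the members' own pattern.

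Cytokines that induce the families were hardly read. None of 10 ligand genes had enough reads for a test. Il6 had 1 read over the O-titled and 1 over the Y-titled libraries, and Tnf 2 reads over the O-titled and 0 over the Y-titled ones. Il1b, a macrophage form of interleukin-1, had 34 reads over the O-titled libraries, 21 of them in replicate 1, a male, and 11 over the Y-titled ones. The most abundant ligand was Ctf1 (cardiotrophin-1), at 7.15 ± 2.42 CPM in O-titled libraries and 6.40 ± 0.90 CPM in Y-titled ones (SD, n = 4 each).

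Of 10 tested receptor genes 1 fell and none rose in the O-titled libraries, against 1.92% of tested genes called lower and 2.09% called higher. Lifr, the receptor for leukaemia inhibitory factor that signals with gp130, averaged 86.4 ± 19.6 CPM in O-titled libraries and 181 ± 40.0 CPM in Y-titled ones (SD, n = 4 each), a log2 difference of -1.04 (SE 0.17, edgeR adjusted p = 0.00189). Il1rap, the shared chain of the interleukin-1 receptor and the most abundant other receptor here, differed by -0.25 (edgeR adjusted p = 0.279). The interleukin-6 receptor chains did not pass, with 0.09 for Il6ra and -0.08 for its partner Il6st (gp130). Il1r1, the signalling interleukin-1 receptor, differed by -0.78 (edgeR adjusted p = 0.120) and the tumour necrosis factor receptor Tnfrsf1a by 0.16 (edgeR adjusted p = 0.630). The median over the tested receptors was 0.0044.

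No signal transducer (0 of 13) and no transcription factor of the acute phase (0 of 10) passed the edgeR test, against 4.01% of tested genes. At that share a list this short may hold no call. Stat3, which carries the interleukin-6 signal, averaged 70.6 ± 21.4 CPM in O-titled libraries and 55.0 ± 19.99 CPM in Y-titled ones (SD, n = 4 each), a log2 difference of 0.36 (edgeR adjusted p = 0.624). Cebpa, the most abundant factor, differed by 0.04, Cebpb by 0.51 (edgeR adjusted p = 0.383) and Cebpd by 0.74 (edgeR adjusted p = 0.175). In libraries, Cebpd had 13.02 and 16.1 CPM in the O-titled females and 20.4 and 18.8 CPM in the O-titled males, against 12.9 and 11.7 CPM in the Y-titled females and 6.92 and 11.9 CPM in the Y-titled males. All O-titled libraries were thus above all Y-titled ones, as for 4.1% of tested genes, but by little. The nearest were O-titled replicate 3 (15 reads) and Y-titled replicate 3 (14 reads). Among NF-kB subunits Nfkb1 differed by -0.28 and Rela by -0.33. Within females 1 of the 10 factors fell, against 2.74% of tested genes called lower. It was Hnf4a, a regulator of hepatocyte identity (log2 -0.57, edgeR adjusted p = 0.0304). List medians were -0.07 for transducers and 0.02 for factors.

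Feedback inhibitors also gave no call (0 of 4 tested, against 4.01% of all tested genes). Socs3, the inhibitor that interleukin-6 induces, had 36 reads in O-titled and 20 in Y-titled libraries and was under the count filter. Tsc22d3, a glucocorticoid-induced inhibitor and the most abundant of the tested ones, differed by 0.12 (edgeR adjusted p = 0.792). The list median was -0.20. Socs2, which growth hormone induces, had 28 reads in O-titled and 162 in Y-titled libraries (95 and 44 of these in the Y-titled females), and was not tested.

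Among other acute-phase proteins more genes passed. Of 29 tested, 7 rose and 1 fell in O-titled libraries, against 2.09% of tested genes called higher and 1.92% called lower. The list median was 0.38. Lcn2, a lipocalin that withholds iron from bacteria, had the largest rise (log2 3.58, SE 0.48, edgeR adjusted p = 0.0130), followed by Hamp (hepcidin, the iron hormone) at 1.15, Fgl1 at 0.99, Lrg1 at 0.95, Itih4 at 0.83, Steap4 at 0.81 and Apcs (serum amyloid P) at 0.80. These 6 had edgeR adjusted p between 6.00e-05 and 0.00452. Ahsg (fetuin-A), which falls in the acute phase, fell by 0.57 (SE 0.12, edgeR adjusted p = 0.0114). Alb, the most abundant gene of the list, differed by -0.10 (edgeR adjusted p = 0.827). Within females 11 of 29 rose and 1 fell, against 2.74% of tested genes called in each direction. The same 7 rose there, joined by Hp (haptoglobin, 1.71), Itih3 (1.46) and the complement components C3 (0.81) and C4b (0.59), while Ttr (transthyretin), which falls in the acute phase, fell by 0.55 on the log2 scale (edgeR adjusted p = 0.0270). Within males 5 of the 29 rose (Lcn2, Hamp, Steap4, Fgl1 and Apcs) and none fell, against 0.636% of tested genes called higher and 0.621% called lower. Fga, Fgb and Fgg, the fibrinogen chains that interleukin-6 is known to induce, differed by -0.15, -0.10 and -0.20 (edgeR adjusted p of 0.634, 0.762 and 0.468).

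Genes for the lipoprotein that carries SAA1 and SAA2 gave no call (0 of 16, against 4.01% of tested genes, median -0.20). Apoa1, the main apolipoprotein of high-density lipoprotein, averaged 9271 ± 2994 CPM in O-titled libraries and 12396 ± 2569 CPM in Y-titled ones (SD, n = 4 each), a log2 difference of -0.46 (edgeR adjusted p = 0.303). Apoe, the most abundant, differed by -0.06 (edgeR adjusted p = 0.832). Within females 2 of the 16 fell, against 2.74% of tested genes called lower. These were Apoa5 and Apoc3, by 0.84 and 0.66 on the log2 scale (edgeR adjusted p of 0.00493 and 0.0454). Among 8 tested lipocalin relatives of the orosomucoids, Lcn2 alone rose, against 2.09% of tested genes called higher, and none fell. Their median was -0.27. Within females Ambp, the precursor of alpha-1-microglobulin, rose as well (0.69, edgeR adjusted p = 0.00643), making 2 of 8 against 2.74% of tested genes. Mup3, a major urinary protein and the most abundant of them, differed by -1.50 (edgeR adjusted p = 0.346), and its near-identical relatives make its count uncertain.

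The hepatocyte markers were present in every library, and their sum was 82939 to 112679 CPM in O-titled libraries and 91525 to 134771 CPM in Y-titled ones. Of 9 tested, 1 (Ahsg) was called, as lower, against 1.92% of all tested genes. Stellate cell markers summed to 228 to 282 CPM in O-titled and 154 to 208 CPM in Y-titled libraries, with no overlap. Most of each sum was Dcn (decorin, a matrix proteoglycan), at 159 to 191 CPM in O-titled and 89.1 to 143 CPM in Y-titled libraries. All O-titled libraries lay above all Y-titled ones for Dcn, as for 4.1% of tested genes. Among the smaller markers Lrat also lay apart, while Col3a1 was highest in a Y-titled library, at 36.5 CPM. Of 5 tested stellate markers 1 rose, Dcn (log2 0.58, edgeR adjusted p = 0.00956), and their median was 0.58. Sinusoidal endothelial markers summed to 288 to 393 CPM in O-titled and 247 to 352 CPM in Y-titled libraries. There 1 of 8 rose, the Fc receptor gene Fcgr2b (log2 0.62, edgeR adjusted p = 0.0490), against 2.09% of tested genes called higher. Neutrophil markers summed to 14.8 to 64.4 CPM in O-titled libraries and 13.9 to 92.8 CPM in Y-titled ones, with Ngp and Ltf at 0 reads in all of them. Most of the highest Y-titled sums was Ly6g (88.2 and 61.0 CPM in the Y-titled females), and without it, a choice made after its values were seen, the sums were 12.1 to 46.5 CPM in O-titled and 4.59 to 18.8 CPM in Y-titled libraries. Lymphocyte markers summed to 14.8 to 44.3 CPM in O-titled and 12.6 to 17.5 CPM in Y-titled libraries, and cholangiocyte markers to 26.9 to 46.0 CPM in O-titled and 17.8 to 45.01 CPM in Y-titled libraries. Erythroid genes summed to 2147 to 2774 CPM in O-titled and 1701 to 4659 CPM in Y-titled libraries. The part of any of these cell types in the member values was not tested.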

How the data were processed

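Per the labels' protocols, polyadenylated RNA from 8 livers was ligated to a 5′ adapter and sequenced directly on MinION flow cells. The submitters' processing notes name the aligner minimap2 2.24, genome build mm10 and DESeq2. How reads were counted, and how those fitting more than 1 transcript were handled, is not given in the sources used here. The authors deposited raw read counts for each transcript, without normalization, and the deposited tables also give read lengths in bases. Each file names a separate animal.

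Transcript counts were summed to genes. Positions came from GENCODE M21 and promoters from RefSeq. Genes were kept with filterByExpr (minimum count 10), scaled by TMM (trimmed means of M values), and analysed in R 4.3.3 by edgeR 4.0.16 (robust quasi-likelihood, Benjamini-Hochberg adjustment over 6759 genes, threshold 0.05), with sex as a covariate. A fit with 4 cells of title and sex gave the differences within each sex and their difference. Adjusted p values come from these edgeR fits unless another tool is named. DESeq2 1.42.0, voom in limma 3.58.1, other scalings and filters, and leaving out each library were alternatives. The scripts were tested on simulated data.

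The members and gene lists were chosen with earlier results of these data known. Genes named are the members, every listed pathway gene that passed with both sexes together, the most abundant gene of each list that did not, a fixed set of pathway genes, and the 5 genes most like each family. Listed genes that passed only within 1 sex, and markers, were added after their values were seen. Intervals and floors cover counting error only.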

Additional observations from a re-analysis of the deposited data

Results flagged for a closer look

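Libraries far from the others of their group were looked for in 20 sets of 4 values, and 5 sets had such a library. The rule flags about 1 in 20 sets when the 4 values are drawn alike. That rate does not apply here, because each set pools the sexes and several sets share the same genes and libraries. Among O-titled libraries, Saa3 was far higher in replicate 3, a female, at 42.5 CPM, than in the other 3. Among Y-titled libraries replicate 4, a female, stood apart for Orm2 at 88.9 CPM, for Orm3 at 21.5 CPM and for the Orm2 share of orosomucoid reads at 5.60%. O-titled replicate 4, also a female, stood apart for the Orm3 share of orosomucoid reads at 1.71%, from 97 reads. Each of these sets holds both sexes.

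The difference of O-titled over Y-titled libraries differed between the sexes for Orm1, being 1.07 larger on the log2 scale in females than in males (edgeR adjusted p = 0.0343). This call depended on the processing. It was lost in limma voom (adjusted p = 0.0571) and after thinning all libraries to the shallowest (edgeR adjusted p = 0.0547). On leaving out a library the value ranged from 0.91 to 1.27. Both females of the O-titled group exceeded both of the Y-titled group, and so did the males.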

How the results depend on the processing

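In the comparison of both sexes the count of 0 members called became 1 with library totals as the only scaling (Orm1), 2 with DESeq2, 2 with limma voom and 4 with no filter on low counts (Saa3, Saa4, Orm1 and Orm3). The 271 genes called overall became 600 with no filter, 136 after thinning and 134 without the sex covariate. Leaving out 1 library at a time gave 0 to 1 members and 154 to 294 genes, with 176 genes without Y-titled replicate 3 and 154 without Y-titled replicate 4. Within females 3 became 5 with DESeq2 and 5 with limma voom, and 1 to 4 on leaving out a library. With no filter it was 4, but these were Saa3, Saa4, Orm1 and Orm3, and the calls of Saa1 (edgeR adjusted p = 0.0575) and Orm2 (edgeR adjusted p = 0.0814) were lost. Within males all these fits gave 0. For the difference between sexes 1 became 4 with DESeq2, 2 with limma voom and 0 after thinning, and 0 to 2 on leaving out a library. For females over males 0 became 1 with DESeq2, 1 with limma voom and 2 with no filter (Orm1 and Orm3), and 0 to 1 on leaving out a library. The cause of these moves was not tested. With Saa1 and Saa2 counted as 1 gene, and Orm1, Orm2 and Orm3 as another, both sums passed within females. Their log2 differences were 5.03 (edgeR adjusted p = 0.0443) and 1.75 (edgeR adjusted p = 2.69e-06). Neither passed within males or with both sexes together. For the difference between sexes the orosomucoid sum passed (1.48, edgeR adjusted p = 0.00695) and the Saa1 and Saa2 sum did not (4.88, edgeR adjusted p = 0.317).

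The sign turned only for values within males. Saa1 became 0.0099 with library totals only, 0.046 after thinning and 0.15 with Saa1 and Saa2 counted as 1 gene. On leaving out a library it ranged from -0.65 to 0.39, Saa2 from -0.57 to 1.34 and Saa3 from -0.19 to 0.55. Orm3 ranged from 0.61 to 2.01 (exact p from 0.143 to 0.514). Of the single values recomputed, 317 were counted as unchanged, 27 gained a call, 22 lost it and 8 turned. For differences, unchanged means the same direction and side of the threshold. The count also includes mean levels under another scaling, taken as unchanged when they moved by less than the SD over libraries.

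Replicate numbers are shared between groups, and same-numbered libraries also share their sex. Deviations from the title means correlated at 0.235 to 0.421 within a number, but at -0.062 and -0.027 once the sex means were removed, so no pairing beyond sex was seen. With the replicate block 0 members and 184 genes were called. Shallow libraries limit Saa3 and Orm3, which had under 10 reads in some libraries.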

Other observations

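Hp (haptoglobin) differed by 1.71 on the log2 scale within females (edgeR adjusted p = 0.000135) and by -0.01 within males (edgeR adjusted p = 0.999). Hamp (hepcidin) differed by 0.89 within females (edgeR adjusted p = 0.00406) and by 1.41 within males (edgeR adjusted p = 0.000302), and Fgl1 by 1.20 within females (edgeR adjusted p = 1.44e-05) and 0.78 within males (edgeR adjusted p = 0.00589). Crp, the classical acute-phase marker of humans, differed by -0.22 with both sexes together (edgeR adjusted p = 0.283). In the test of the difference between the sexes, Hp passed with 1.71 on the log2 scale (edgeR adjusted p = 0.0175), as did Itih3 with 1.16 (edgeR adjusted p = 0.0343) and Lcn2 with 2.27 (edgeR adjusted p = 0.0179). Hamp, with -0.53, and Fgl1, with 0.42, did not pass it (edgeR adjusted p of 0.584 and 0.587).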
